A study of Mus musculus with 36 samples.

Results

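The comparison is between cells named ISC and cells named progenitor in the annotation deposited with 2 single-cell RNA libraries from the small intestine of 12-month-old wild-type mice (strain C57BL6/2J). ISC is read here as intestinal stem cell. Members were chosen by that annotation alone: 852 of the 2614 annotated cells carry either name, 158 of them ISC (78 in set 1, 80 in set 2) and 694 progenitor (330 in set 1, 364 in set 2). Both types came from the same libraries, made on the 10x Genomics Chromium platform, which labels each captured RNA molecule with a unique molecular identifier (UMI). The series as a whole profiles RNA of the mouse intestinal epithelium. The cells carry no labelled treatment or engineered allele. The labels speak of mice in the plural and do not say whether the sets are separate animals, nor whether these cells were sorted. The spread between these 2 libraries may thus be technical. The p-values and standard errors use that spread pooled over genes, so they do not say how steady a single gene was. Agr2, for instance, had log2 fold changes (ISC minus progenitor) of 0.23 in set 1 and -1.41 in set 2. Its adjusted p was 5.1e-09 in edgeR's quasi-likelihood test and 0.98 by DESeq2. The annotation was made from the same RNA counts, so a p-value is no independent evidence that the types differ.

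The lining of the small intestine renews itself from stem cells at the base of its crypts, which are kept in their state by Wnt signals, among others from neighbouring Paneth cells, and are commonly recognised by Lgr5, a gene for a receptor of the R-spondins, which strengthen Wnt signals. Their daughters, the progenitors or transit-amplifying cells, divide rapidly while they move up the crypt and commit to the absorptive or the secretory lineage. In adult mouse small intestine most Lgr5 cells divide too, more slowly than their daughters.

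In set 1 the ISC sum held 1206930 UMIs and the progenitor sum 6028825, and in set 2 they held 1450911 and 12134928. The median ISC held 15149.5 UMIs in set 1 and 16514 in set 2, and the median progenitor 17366.5 and 26650. Median mitochondrial shares were 5.06% and 9.56% in ISC and 5.79% and 9.64% in progenitors. No barcode was shared by the libraries. ISC made up 19.1% of the cells of the 2 types in set 1 (exact 95% binomial interval 15.4 to 23.3) and 18.0% in set 2 (14.6 to 21.9). Intervals cover counting error only.

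ISC carried more RNA of crypt stem cell genes, Wnt target genes, ribosomal proteins and major histocompatibility complex (MHC) class II genes. Progenitors carried more RNA of mitotic genes, of absorptive enterocyte genes, of Reg3 and related antimicrobial genes and of cholesterol synthesis genes. Of 10052 genes tested, 1829 (18.2%) passed an adjusted p of 0.05 in edgeR's quasi-likelihood test with the library as a block. Of these 915 (9.10%) were higher in ISC and 914 (9.09%) lower, and 1797 had 1 direction in both sets. These shares are the background for the gene lists below. At least 2-fold changes numbered 263 higher and 383 lower. The median log2 fold change over all genes tested, ISC minus progenitor, was -0.0062. How many genes pass depends strongly on the model. DESeq2 called 455, edgeR on cells thinned to 5000 UMIs 653, edgeR with every annotated cell type in the fit 804, and edgeR without the library block 13. Scaling by library totals gave 499 higher and 1308 lower (27.6% of calls higher, against 915 of 1829 here) and moved the median of all genes to -0.14. All 1829 calls kept their sign under DESeq2, library totals and the fit without the block. These fits used the same sums, so a kept sign is no further support for a call.

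**Figure D1:**
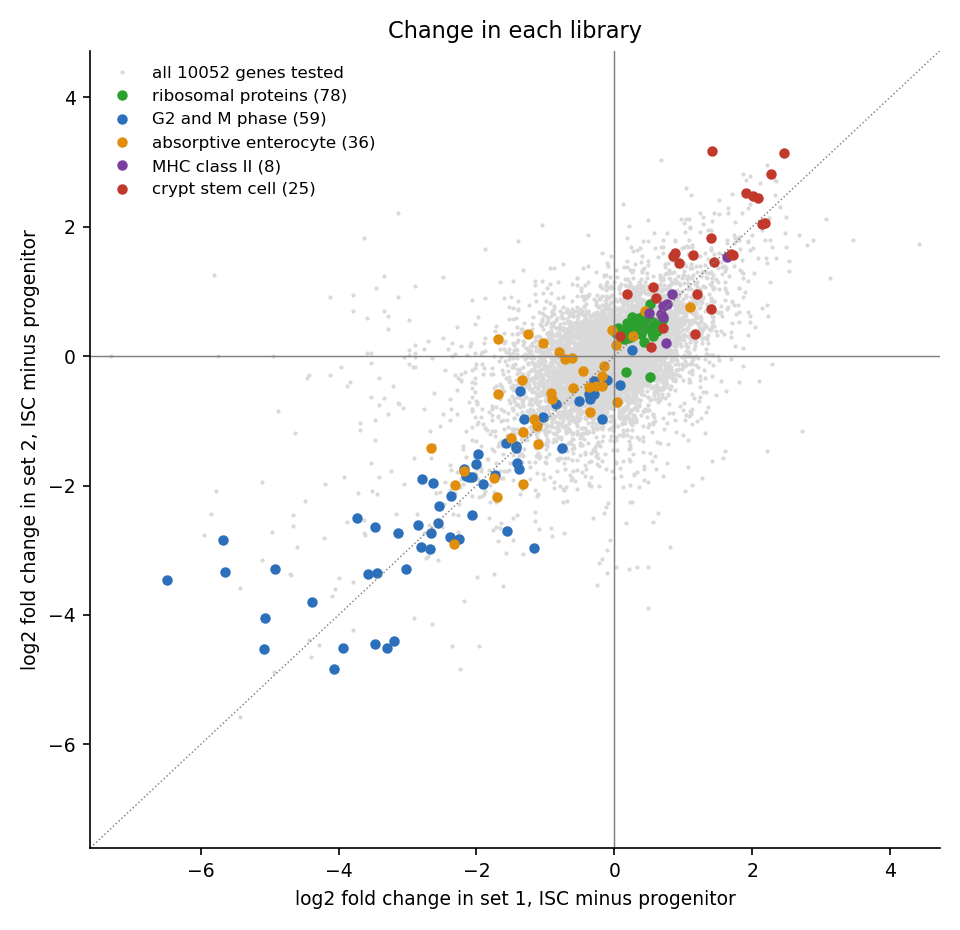
Log2 fold change (ISC minus progenitor) of each gene in set 1 (x axis) and set 2 (y axis), 1 point per gene, with 5 gene lists in colour and the line of equal change dotted. Crypt stem cell genes lie to the upper right, G2 and M phase genes to the lower left, and the 78 ribosomal protein genes in a small cloud just above 0 on both axes.

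The annotated names were checked against marker genes. All 7 stem cell markers (Lgr5, Ascl2, Olfm4, Smoc2, Slc12a2, Gkn3 and Axin2) were higher in ISC, and 6 of 8 cycling progenitor markers were lower. Of the other 2, Stmn1 stood at 591 and 588 counts per 1000000 normalised UMIs (CPM) in ISC of sets 1 and 2 against 496 and 553 in progenitors (adjusted p = 0.25), and Tubb5 at 524 and 278 against 493 and 377 (adjusted p = 0.27). This is a description, since cell types are named from such genes.

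Lgr5, the R-spondin receptor that marks crypt base stem cells, stood at 37.8 CPM in set 1 and 63.6 in set 2 in ISC, against 7.54 and 8.76 in progenitors. Both ISC values lie above both progenitor values. Such statements, here and below, describe the genes named, since the share of all genes tested that lie so was not counted. The log2 fold change was 2.67 (SE 0.21, adjusted p = 9.6e-34). After thinning every cell to 5000 UMIs, an Lgr5 UMI was found in 11 of 78 ISC in set 1 (14.1%, interval 7.26 to 23.8) and 17 of 75 in set 2 (22.7%, interval 13.8 to 33.8). Without thinning the shares were 25.6% and 32.5%. Among progenitors the thinned counts were 7 of 330 (2.12%) and 12 of 342 (3.51%), and without thinning the shares were 6.67% and 7.69%. In enterocytes, which should lack Lgr5 and serve as background for free RNA, they were 0 of 406 and 0 of 479, which allows shares of up to 0.739% and 0.626%. Most ISC therefore showed no Lgr5 UMI at this depth, which does not mean that they lack the transcript.

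Olfm4, a secreted glycoprotein of crypt base cells, shows how far the libraries differ in level while the difference between types stays. It stood at 22.1 CPM in ISC of set 1 and 286 in ISC of set 2, against 5.19 and 51.3 in progenitors. ISC were higher within each library, but the ISC level of set 1 lies below the progenitor level of set 2. The log2 fold change with the library as a block was 2.43 (SE 0.14, adjusted p = 9.4e-65).

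Of the 25 crypt stem cell genes on the list, all tested, 20 were higher in ISC and none lower, with a median log2 fold change of 1.38. DESeq2 called 17 higher and none lower, and edgeR with every cell type in the fit 19 and none. Gkn3, a gastrokine, stood at 44.2 and 24.6 CPM in ISC against 7.70 and 2.47 in progenitors (log2 fold change 2.86, SE 0.26). Tnfrsf19, a Wnt-induced receptor also called Troy, stood at 5.53 and 16.4 against 1.84 and 1.50 (2.88, SE 0.45). Slc12a2, the sodium-potassium-chloride cotransporter, was abundant and high in both libraries, at 268 and 486 CPM against 121 and 164 (1.38, SE 0.11). Smoc2, a matrix protein, was not confined to ISC. After thinning 41.0% and 42.7% of ISC had a UMI, as did 27.3% and 17.5% of progenitors. So did 24.4% and 18.2% of secretory progenitors and 1.48% and 3.13% of enterocytes. Nor was Slc12a2 confined to ISC, where its thinned shares were 61.5% and 82.7%. It was found in 31.5% and 38.3% of progenitors, 54.9% and 68.5% of secretory progenitors and 39.0% and 60.3% of goblet cells. The 5 members that did not pass were Zfp277, Prom1, Rnf32, Esrrg and Cyp2e1, with log2 fold changes of 0.33, 0.23, 0.77, 0.83 and 0.48 (adjusted p from 0.072 to 0.72). On a separate list of 9 reserve or injury-linked stem cell genes, 5 were tested, 2 were higher and none lower, with medians of 0.20 in set 1 and 1.02 in set 2. Mex3a and Hopx, linked to slowly cycling stem cells, were higher in ISC, by 1.65 (SE 0.49) and 1.00 (SE 0.14) on the log2 scale; DESeq2 gave Mex3a no adjusted p. Of the others Bmi1 had a log2 fold change of 0.78 (adjusted p = 0.073), Ly6a -1.63 (0.13) and Krt19 -0.20 (0.11), and 1 member was lower under library totals, without the filter and with the strict filter.

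Other genes with large rises included growth factor and membrane protein genes. Pdgfa, a platelet-derived growth factor chain and a member of the crypt stem cell list counted above, stood at 121 and 166 CPM in ISC and 28.1 and 30.3 in progenitors (2.31, SE 0.13). Igfbp4, a binding protein for insulin-like growth factors, stood at 55.3 and 56.7 against 11.4 and 12.7 (2.21, SE 0.19). Ifitm3, an interferon-induced membrane protein that blocks virus entry, was the most abundant of the leading genes, at 1282 and 865 CPM against 368 and 249.6 (1.80, SE 0.10). Each of these 3 genes was higher in both ISC sums than in either progenitor sum. Phlda1, Agr3 and Rnase4 were higher too, by 2.33 (SE 0.20), 2.30 (SE 0.21) and 1.48 (SE 0.17) on the log2 scale.

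**Figure D2:**
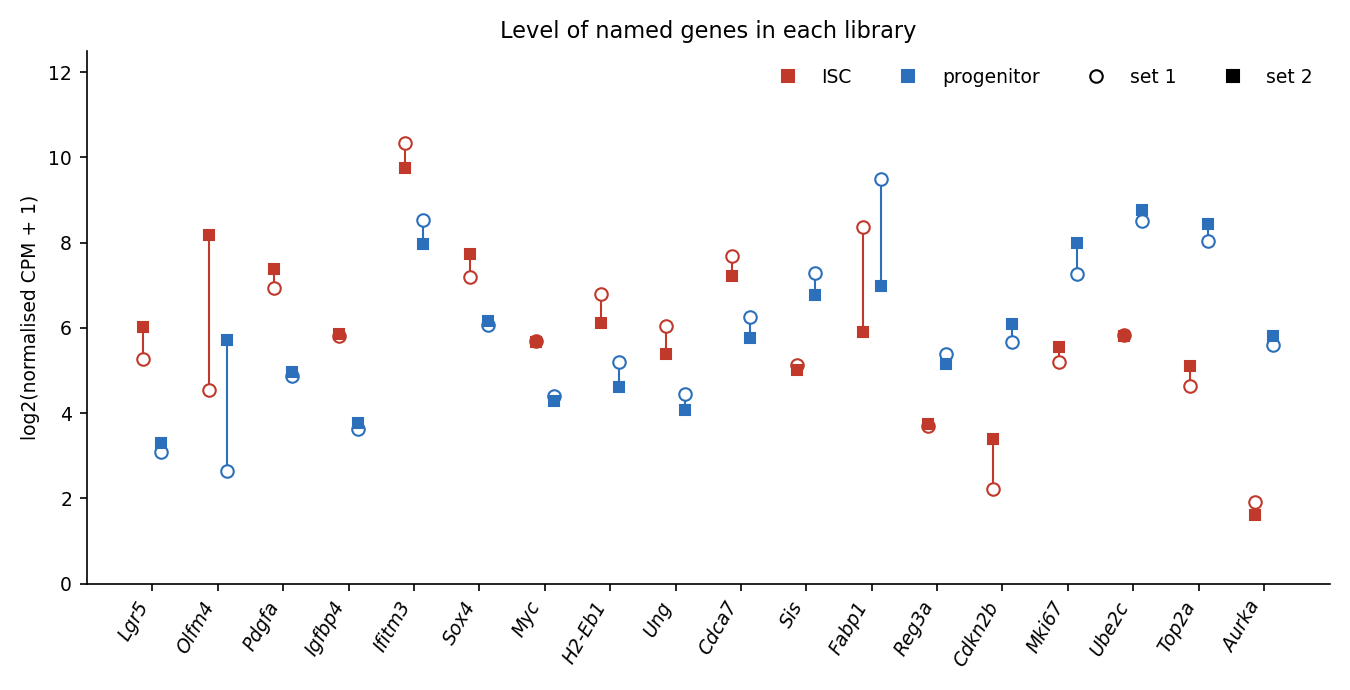
Level of 18 named genes as log2(normalised CPM + 1) in the ISC sum (red) and the progenitor sum (blue), with set 1 as open circles and set 2 as filled squares. Lgr5, Pdgfa, Igfbp4 and Ifitm3 lie higher in ISC and Top2a, Ube2c and Aurka higher in progenitors in both sets, while Olfm4 and Fabp1 differ between sets as much as between types.

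Markers of some other cell types differed between ISC and progenitors as well, in both directions. For Paneth cells, 10 of 12 markers were tested and 7 were higher in ISC (DESeq2 called 2). Together the markers made up 0.633% of ISC UMIs in set 1 and 0.0897% in set 2, against 0.329% and 0.122% in progenitors, and 50.6% and 43.9% in annotated Paneth cells. No Paneth marker was at 0. Per cell, the median share was 0.284% in ISC and 0.292% in progenitors in set 1, and 0.0811% and 0.0498% in set 2, so in each set the type with the larger sum had the smaller median. In set 1, 4 of 78 ISC and 10 of 330 progenitors held over 1% of their UMIs in markers of other types. In the sums, Defa17, an alpha-defensin, stood at 321 CPM in ISC and 95.1 in progenitors there, but at 6.15 and 5.47 in set 2. Paneth cells themselves held Lgr5 at 6.31 and 23.2 CPM of total UMIs. Leaving out every cell with over 1% of its UMIs in markers of other types left 20 of 25 crypt stem cell genes higher, with a median of 1.45. Of 8 goblet markers tested, 6 were lower in ISC by edgeR and none by DESeq2. Together the markers made up 0.0768% and 0.0944% of ISC UMIs against 0.0858% and 0.197% in progenitors. Their median log2 fold change was -0.011 in set 1 and -1.29 in set 2. Per cell, median shares were 0.0493% and 0.0487% in ISC and 0.0485% and 0.0337% in progenitors. Leaving out cells rich in other markers left 1 goblet marker lower, with a median of 0.092. No tuft marker passed the filter, and of 5 leukocyte markers Gzma and Gzmb were lower in ISC by edgeR. The part of these markers in other results was not tested beyond that.

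Wnt signalling acts through Frizzled receptors and the beta-catenin destruction complex on target genes, several of which feed back as inhibitors. Of 32 genes tested, 9 were higher and 1 lower, and the members that passed were almost all targets or feedback inhibitors: 8 of 13 such genes were higher, none lower, with a median of 0.92. Myc, a growth regulator, stood at 50.7 and 49.9 CPM in ISC against 20.1 and 18.6 in progenitors (1.39, SE 0.18). Axin2, a feedback inhibitor, stood at 69.1 and 83.4 against 43.4 and 38.7 (0.92, SE 0.14). Rnf43, which with Znrf3 removes Frizzled receptors from the membrane, stood at 38.7 and 43.7 against 17.3 and 18.1 (1.23, SE 0.20). For these 3 genes, of which Axin2 and Rnf43 were named after their values were seen, the groups did not overlap. Sox9, a transcription factor of the crypt base, was higher by 1.31 (SE 0.14) and Sp5, a transcription factor, by 1.59 (SE 0.32, adjusted p = 1.3e-05, and 0.077 by DESeq2). None of the 12 genes of the destruction complex and its transcription factors passed, with a median of -0.0078. The most abundant target genes did not pass either: Ccnd1 stood at 175 and 259 against 158 and 291, and Ccnd2 at 438 and 427 against 417 and 395. DESeq2 called 5 Wnt genes higher and 1 lower.

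In the Notch pathway, in which ligands on one cell activate receptors on the next and keep crypt cells from the secretory fate, 3 of 17 genes were higher and 1 lower, a share near the background. Hes1, a repressor and direct target, stood at 111 and 82.0 CPM against 71.7 and 56.0 (0.59, SE 0.13, adjusted p = 0.00012, and 0.12 by DESeq2). Hes6 was higher by 0.91 (SE 0.14), and DESeq2 called it as well. Notch1 stood at 16.6 and 25.3 against 17.6 and 15.1 (adjusted p = 0.25). In the bone morphogenetic protein (BMP) pathway, which restrains stem cells outside the crypt base, 1 of 18 genes was higher (Tgif1) and 2 lower (Smad6 and Id3), again near the background, and DESeq2 called none of these 3. Of 10 Eph receptors and ephrins, which sort crypt cells by position, Efna4 was higher (1.33, SE 0.19), and Efnb1 and Efnb2 were lower (-0.75, SE 0.17, and -1.79, SE 0.36; adjusted p = 0.23 and 0.10 by DESeq2).

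Mitotic genes showed the widest difference. Of 59 genes of the G2 and M phases, all tested, 55 were lower in ISC and none higher, with a median log2 fold change of -2.26 (-2.17 in set 1 and -2.16 in set 2). DESeq2 called 49 lower. Top2a, the topoisomerase that untangles chromosomes before division, stood at 24.0 and 33.5 CPM in ISC against 264 and 345 in progenitors (-3.40, SE 0.15, adjusted p = 2.3e-102). Ube2c, the ubiquitin-conjugating enzyme that starts mitotic exit, stood at 56.2 and 54.7 against 360.1 and 434 (-2.85, SE 0.13). Both genes were lower in each ISC sum than in either progenitor sum by a wide margin. Aurka and Plk1, mitotic kinases, stood at 2.76 and 2.05 against 47.7 and 55.0 (-4.45, SE 0.34) and at 5.53 and 8.88 against 51.4 and 61.1 (-2.93, SE 0.25). Gtse1 had no UMI in either ISC sum against 12.1 and 8.09 CPM in progenitors, at least 7.91-fold lower against a floor of 3 counts over both ISC sums, and with it at that bound the list's median was still -2.26. Hist1h1b, a linker histone, stood at 0 and 3.42 CPM against 10.9 and 111 (-5.11, SE 0.34). Mki67, the usual marker of cycling cells, stood at 35.9 and 45.8 against 152 and 253 (-2.32, SE 0.15), so its level in ISC was reduced but not at the floor.

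**Figure D3:**
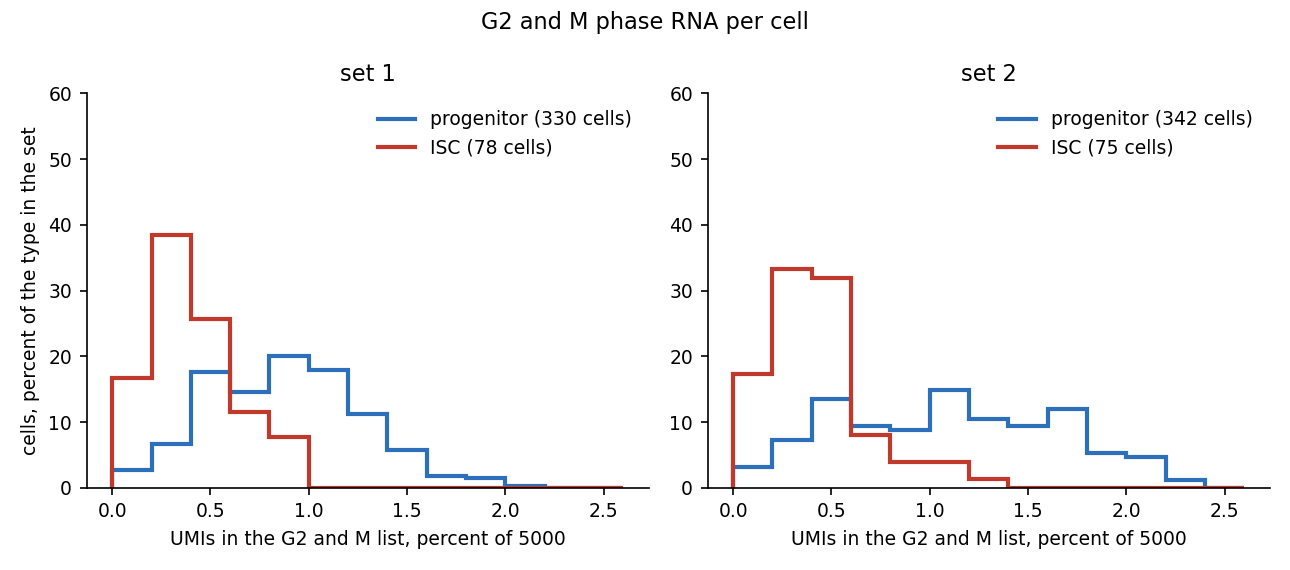
Share of a cell's 5000 thinned UMIs that falls on the 59 G2 and M phase genes (x axis, percent), as the percent of cells of each type in bins of 0.2 percentage points, for ISC (red) and progenitors (blue) in set 1 (left) and set 2 (right). ISC pile up below 0.6% in both sets, while progenitors spread to above 2%.

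Per cell, the median share of thinned UMIs in these genes was 0.36% and 0.38% in ISC and 0.88% and 1.11% in progenitors. Cells at or above 1% numbered 0 of 78 ISC in set 1, which allows up to 3.85%, and 4 of 75 in set 2 (5.33%), against 127 of 330 progenitors (38.5%) and 198 of 342 (57.9%). The distributions overlap: 46 progenitors in set 1 and 58 in set 2 lay under 0.5%. After thinning, a Top2a UMI was found in 8.97% and 10.7% of ISC, 58.8% and 59.4% of progenitors and 2.22% and 1.04% of enterocytes.

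Lgr5 and mitotic RNA were not mutually exclusive in progenitors. Of the progenitors at or above 1% G2 and M share, 4 of 127 and 9 of 198 had an Lgr5 UMI after thinning, against 0 of 46 and 0 of 58 below 0.5% (which allows up to 6.52% and 5.17%). In ISC the Lgr5 cells lay mostly at the low end, 10 of 57 and 15 of 45 below 0.5% and 1 of 21 and 2 of 26 from 0.5% to 1%. Cells are not replicates and no test was made of these shares.

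Promoters of mitotic genes are known to carry CCAAT boxes, bound by NF-Y, and cell cycle homology regions with the letters TTTGAA. Of the 59 genes, 50 matched the RefSeq promoter table (GRCm38.p6), with 55 promoters. The letters CCAAT, searched on both strands over the 250 bases before the start, stood in 42 of the 55 (76.4%), against 33.8% of all 32851 promoters in the table. TTTGAA stood in 21 (38.2%, against 16.0%), both together in 18 (32.7%, against 5.55%), and TTNGCGC, an E2F site, in 12 (21.8%, against 5.19%). A match describes the letters and is no sign of binding. Other lists with at least 80% of members matched held CCAAT in 43.3% (crypt stem cell genes, 30 promoters) and 30.3% (absorptive genes, 33 promoters) and TTNGCGC in 3.33% and 9.09%. The same count is void for the genes tested, for those called higher or lower and for the S phase and cholesterol lists, since fewer than 80% of each matched the table. The 32851 promoters also include those of genes not tested here. Whether these shares are particular to mitotic genes therefore cannot be told from the counts given. The 4 promoters below belong to the mitotic genes with the lowest fold changes that hold both motifs and have a single promoter in the table, and are shown so that the letters can be seen in place. Each runs 5′ to 3′ in the direction of the gene over the 250 bases before the start, and capitals mark CCAAT or its reverse complement ATTGG, and TTTGAA or its reverse complement TTCAAA. Ckap2l lies at chr2:129297213-129297462 on the minus strand, Kif11 at chr19:37376132-37376381 on the plus strand, Top2a at chr11:99024190-99024439 on the minus strand and Ube2c at chr2:164769679-164769928 on the plus strand.
Ckap2l: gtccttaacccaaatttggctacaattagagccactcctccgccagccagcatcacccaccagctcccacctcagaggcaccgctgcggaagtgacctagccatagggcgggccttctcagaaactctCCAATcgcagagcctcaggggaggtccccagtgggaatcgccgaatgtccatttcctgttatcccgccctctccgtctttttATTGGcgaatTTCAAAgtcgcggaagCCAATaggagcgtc
Kif11: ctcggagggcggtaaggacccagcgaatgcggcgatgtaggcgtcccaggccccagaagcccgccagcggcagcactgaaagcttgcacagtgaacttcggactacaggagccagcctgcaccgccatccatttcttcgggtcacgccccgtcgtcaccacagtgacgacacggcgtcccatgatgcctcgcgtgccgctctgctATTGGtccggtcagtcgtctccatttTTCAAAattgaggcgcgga
Top2a: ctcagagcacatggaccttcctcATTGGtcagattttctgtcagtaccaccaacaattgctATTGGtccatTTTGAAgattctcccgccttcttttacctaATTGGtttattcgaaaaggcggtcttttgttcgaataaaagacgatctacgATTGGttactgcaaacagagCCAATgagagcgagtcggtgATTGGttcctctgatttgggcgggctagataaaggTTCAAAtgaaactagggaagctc
Ube2c: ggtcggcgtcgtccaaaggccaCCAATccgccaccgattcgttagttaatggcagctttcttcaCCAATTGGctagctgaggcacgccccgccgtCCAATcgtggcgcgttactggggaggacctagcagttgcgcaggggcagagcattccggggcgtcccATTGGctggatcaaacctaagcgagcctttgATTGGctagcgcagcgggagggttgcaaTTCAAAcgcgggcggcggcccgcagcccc
Top2a and Ube2c each hold 6 CCAAT matches (a pair in Ube2c overlap), Ckap2l 3 and Kif11 1. Ckap2l, a spindle protein, stood at 0 and 2.73 CPM in ISC against 32.5 and 33.8 in progenitors. Kif11, the motor that separates the spindle poles, stood at 3.68 and 2.73 against 44.6 and 67.7. Both were near the floor in ISC of each library.

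Genes of DNA synthesis were split. Of 44 S phase genes, all tested, 13 were higher in ISC and 12 lower, with a median of 0.074. The median turned to -0.058 under library totals and to -0.035 when each cell weighed alike. Those higher were mainly of the replication licensing complex and of uracil removal: Mcm6, a helicase subunit, stood at 124 and 101 CPM against 63.3 and 61.9 (0.83, SE 0.13), Mcm2 at 68.2 and 50.6 against 29.1 and 33.2 (0.89, SE 0.16), and Ung, which removes uracil from DNA, at 64.5 and 41.0 against 20.8 and 15.7 (1.50, SE 0.19). Cdca7, a chromatin factor also on the crypt stem cell list, stood at 206 and 147 against 75.5 and 53.2 (1.46, SE 0.12). In each of these 4 genes both ISC sums lay above both progenitor sums. Those lower included genes of nucleotide supply and of the replication checkpoint: Rrm2, a ribonucleotide reductase subunit, stood at 10.1 and 12.3 against 36.7 and 42.5 (-1.81, SE 0.24) and Clspn, a checkpoint adaptor, at 4.61 and 10.3 against 14.9 and 38.7 (-1.86, SE 0.29). DESeq2 called 5 higher and 6 lower.

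Among 20 regulators of the cyclin-dependent kinases, 2 were higher and 6 lower in ISC. Cdk6, among those higher, is also on the crypt stem cell list. Cdk6 and Cdk4, the kinases of the G1 phase, stood at 86.6 and 116 CPM against 47.7 and 39.2 (1.26, SE 0.13) and at 397 and 273 against 238 and 191 (0.63, SE 0.10). Of the inhibitors of these and related kinases 4 were lower: Cdkn2b stood at 3.68 and 9.57 against 49.4 and 66.8 (-3.07, SE 0.25), Cdkn2d at 3.68 and 3.42 against 20.1 and 20.1 (-2.50, SE 0.38), Cdkn2c at 12.9 and 2.73 against 27.8 and 19.4 (-1.71, SE 0.31) and Cdkn1a at 12.9 and 21.9 against 42.2 and 42.2 (-1.23, SE 0.21). Rb1 and E2f2 were lower as well by edgeR, and DESeq2 called neither. Cdkn2b was thus the member with the widest gap, and its level in enterocytes was higher than in either type, at 201 and 227 CPM of total UMIs.

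Ribosomal protein genes were slightly but evenly higher in ISC. All 78 had a log2 fold change above 0 (76 in both sets), 71 passed and none was lower, with a median of 0.38. They made up 32.3% and 26.7% of all ISC UMIs and 28.2% and 21.5% of progenitor UMIs. Rpl3 stood at 5497 and 4473 CPM against 3366 and 3014 (0.64, SE 0.08). DESeq2 called 65 and library totals 43. With every cell type in the fit none passed, while 19 had an unadjusted p under 0.05 and 77 of 78 lay above 0, so this call depends on which cell types enter the fit. Of 30 ribosome biogenesis genes 8 were higher and none lower (3 by DESeq2): Npm1, a nucleolar chaperone, stood at 1956 and 1959 against 1053 and 1198 (0.80, SE 0.09), and Fbl, the rRNA methyltransferase, at 320.6 and 269 against 200.5 and 192 (0.58, SE 0.11). Of 20 translation factors 8 were higher, among them Eif3e at 396 and 453 against 227 and 284 (0.74, SE 0.10). By contrast, none of 13 mitochondrially encoded genes and 1 of 50 nuclear genes of oxidative phosphorylation (Cycs, lower by edgeR, adjusted p = 0.26 by DESeq2) passed. Under library totals 8 of the 50 were lower, with a median of -0.14, against -0.14 for all genes there. Of the 13, none passed in DESeq2 and 0 had an unadjusted p under 0.05 in edgeR.

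**Figure D4:**
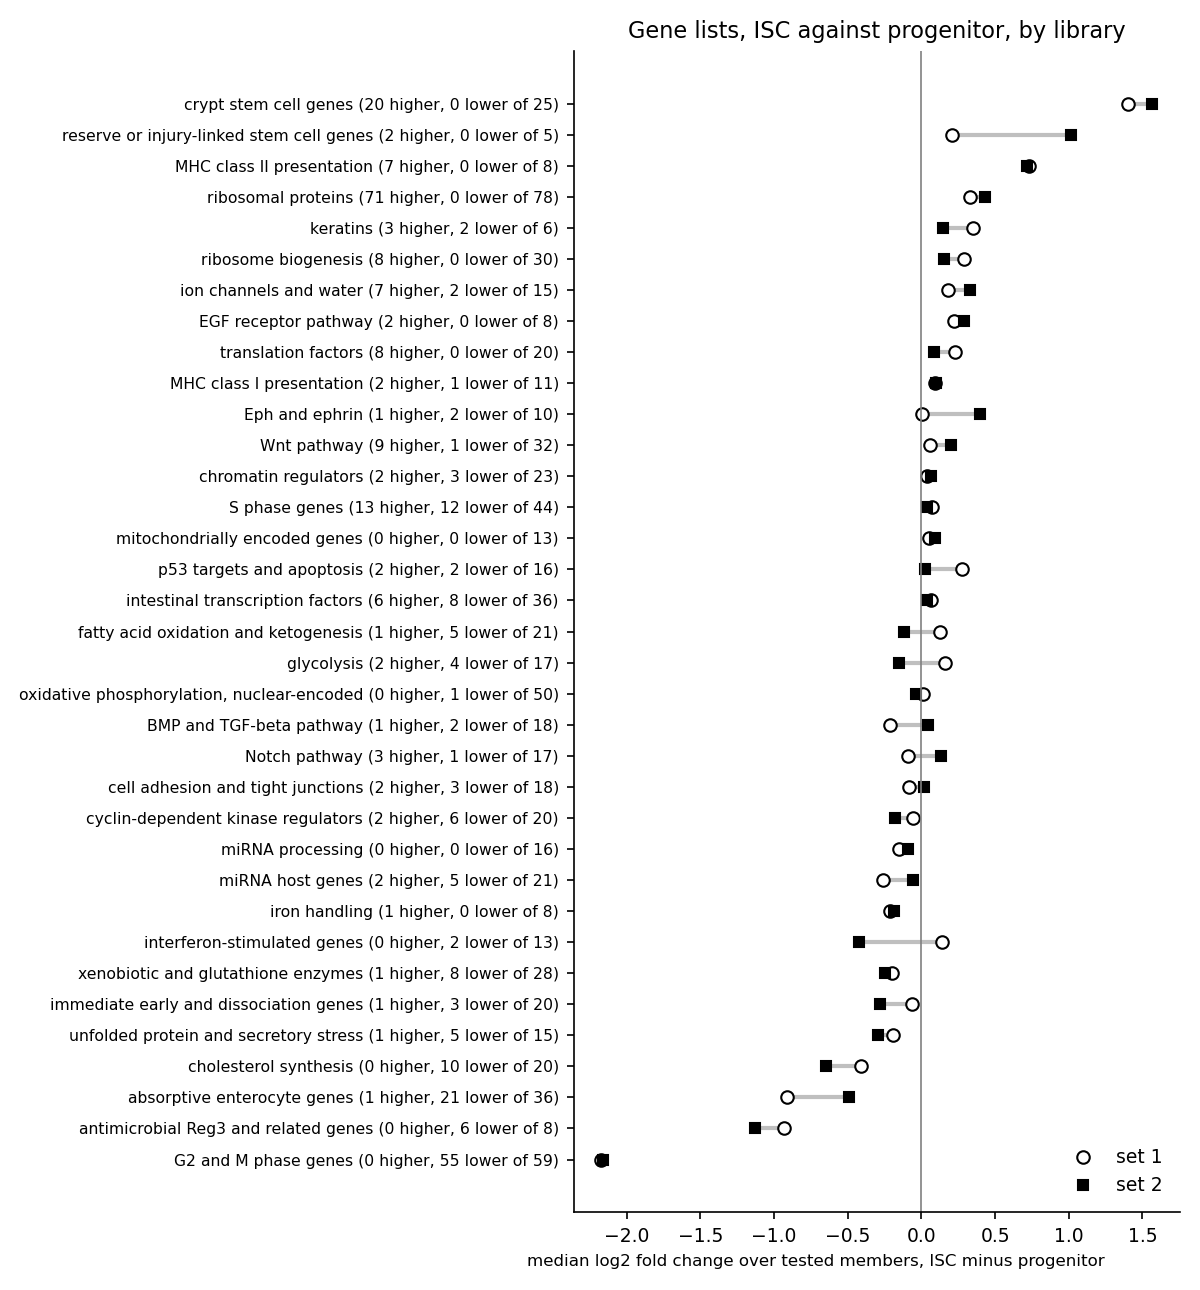
Median log2 fold change (ISC minus progenitor) of each gene list in set 1 (open circles) and set 2 (filled squares), with the members called higher and lower of those tested. The crypt stem cell list (1.40 and 1.57) and the G2 and M list (-2.17 and -2.16) lie farthest from 0, and the nuclear genes of oxidative phosphorylation lie at 0.0092 and -0.038.

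MHC class II genes, which present peptides to helper T cells and are made by gut epithelium as well as by immune cells, were higher in ISC in 7 of 8 cases and lower in none, with a median of 0.70. H2-Eb1 stood at 111 and 68.3 CPM against 35.5 and 23.4 (1.59, SE 0.15), H2-Ab1 at 509 and 387 against 285 and 199 (0.90, SE 0.10), and Cd74, the invariant chain, at 1978 and 1671 against 1234 and 1069 (0.66, SE 0.09). For these 3 genes both ISC sums lay above both progenitor sums. DESeq2 called 6 and the fit with every cell type 4. Enterocytes held H2-Ab1 at 731 and 410.2 CPM of total UMIs, above both ISC and progenitors in each library on that scale. Leukocyte markers, 5 of 13 of which were tested, summed to 0.00315% and 0.00172% of UMIs in ISC against 0.00421% and 0.00718% in progenitors, with Ptprc and Lyz2 among those at 0 in ISC of set 1 and Cd79a and Nkg7 among those in ISC of set 2. Of 11 class I genes 2 were higher and 1 lower by edgeR and none by DESeq2. Of 13 interferon-stimulated genes none was higher and 2 were lower, among them Stat2, for which DESeq2 gave no adjusted p. By edgeR 27.3% of the class I genes and 15.4% of the interferon-stimulated genes passed, against 18.2% of all genes tested.

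Absorptive enterocyte genes were lower in ISC. Of 48 on the list 36 passed the filter on low counts, 21 were lower and 1 higher (Eps8, a cytoskeletal regulator, 0.64, SE 0.19), with a median of -0.61. Brush border enzymes were lower in 4 of 8 cases: Sis, sucrase-isomaltase, stood at 34.1 and 31.4 CPM against 155 and 109 (-1.98, SE 0.16) and Alpi, intestinal alkaline phosphatase, at 5.53 and 1.37 against 29.3 and 12.6 (-2.65, SE 0.40). Lipid handling genes were lower in 7 of 10: Fabp1, a fatty acid binding protein, stood at 329.8 and 58.8 against 718 and 124 (-1.11, SE 0.12), so the libraries differed more than the types, and the direction was the same in each. Apoa1 was lower in set 1 but not in set 2 (47.9 and 22.6 against 98.3 and 19.6), and its call did not hold in DESeq2 (adjusted p = 0.83). Krt20, a keratin of mature cells, stood at 10.1 and 8.88 against 51.9 and 36.4 (-2.19, SE 0.25). DESeq2 called 12 members lower and none higher.

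A list of antimicrobial Reg3 and related defence genes was lower too. Of 12 genes 8 passed the filter on low counts, 6 were lower (Reg3a, Reg3b, Reg3g, Reg1, Dmbt1 and Duox2) and none higher, with a median of -0.97. Reg3a stood at 12.0 and 12.3 CPM against 40.9 and 34.4 (-1.61, SE 0.24) and Reg3g, a lectin that acts on Gram-positive bacteria, at 244 and 622 against 384 and 1353 (-0.91, SE 0.10). Dmbt1, a mucosal scavenger receptor, stood at 312 and 301 against 634 and 615 (-1.02, SE 0.10). In Reg3a and Dmbt1 the groups did not overlap, and in Reg3g the library difference was larger than the type difference. DESeq2 called 3 lower.

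Cholesterol synthesis genes, which are switched on together by SREBP-2 when cells need sterol, were lower in ISC in 10 of 20 cases and higher in none, with a median of -0.60 (-0.41 in set 1 and -0.64 in set 2). Hmgcs1, an early enzyme of the pathway, stood at 33.2 and 31.4 CPM against 56.9 and 76.6 (-1.07, SE 0.17) and Sqle at 13.8 and 18.5 against 21.8 and 41.4 (-0.99, SE 0.23). Each was lower in both libraries. DESeq2 called 2 of the 20, among them Hmgcs1 (adjusted p = 0.023), and the fit with every cell type 6.

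Since the 2 types differ so much in mitotic RNA, the fit was repeated on cells with under 0.5% of their UMIs in the G2 and M list, a setting added after the data were seen: 59 and 50 ISC against 49 and 64 progenitors. The cut kept most ISC and few progenitors, so it also changes which progenitors are compared. Among thinned progenitors under 0.5%, 0 of 46 in set 1 and 0 of 58 in set 2 had an Lgr5 UMI. Crypt stem cell genes stayed higher in 19 of 22 tested with a median of 2.40, ribosomal proteins in 69 of 78 with 0.44 and MHC class II genes in 5 of 7 with 0.61. Whether the larger stem cell median comes from this choice of cells was not tested. Absorptive genes were lower in 26 of 33 (-1.26) and cholesterol synthesis genes in 11 of 18 (-1.11). Of the 50 nuclear genes of oxidative phosphorylation 21 were lower and none higher, with a median of -0.30, against 1 of 50 over all cells. Of 34 S phase genes tested, 14 passed as higher and 1 as lower; their median was 0.63 against 0.074 over all cells. Among the remaining G2 and M genes 10 of 26 were lower and 3 higher (median -0.42), which the choice of cells limits by design. Stmn1 (1.11) and Tubb5 (1.43), both members of the G2 and M list that set the cut, were higher in ISC in this setting. Their own UMIs helped choose the cells, so these values are a description only.

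Across the 8 annotated types, ISC held more of the leading genes than any other type in both libraries for Lgr5, Olfm4, Gkn3, Pdgfa, Igfbp4 and Ifitm3, by CPM of total UMIs. Ifitm3 stood at 1153 and 872 in ISC, 365 and 275 in progenitors, 313 and 184 in secretory progenitors and 18.6 and 11.3 in enterocytes. Sox4 did not follow this order: it stood at 130.1 and 213 in ISC and at 450.2 and 377 in annotated enteroendocrine cells. Nor did the stem cell marker Ascl2 by share of cells. After thinning an Ascl2 UMI was found in 29.2% and 42.9% of the 24 and 21 tuft cells, against 15.4% and 12.0% of ISC. Top2a stood at 235 and 324 in secretory progenitors, 261 and 379 in progenitors and 21.5 and 33.8 in ISC. These are levels by type, with no test, and the annotation was made from the same genes.

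**Figure D5:**
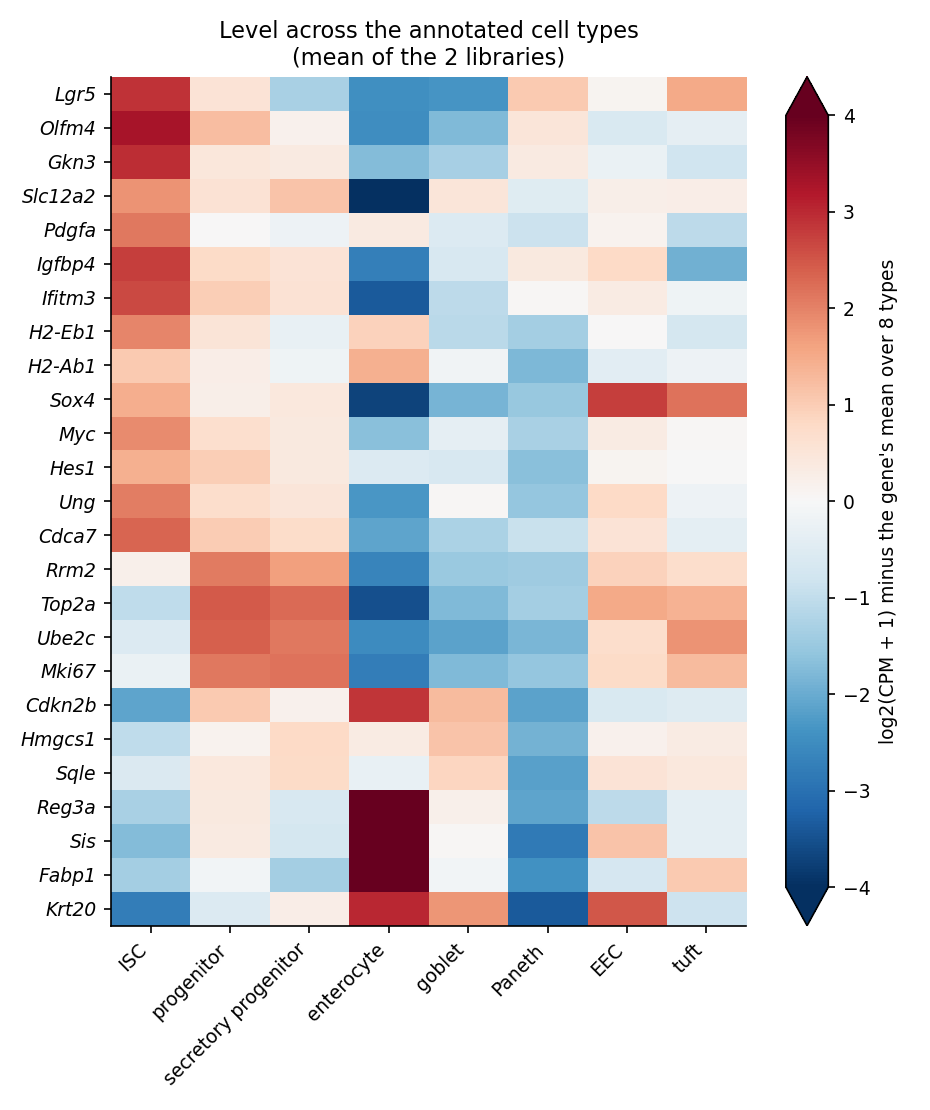
Level of 25 genes in the 8 annotated cell types, as log2(CPM of total UMIs + 1) averaged over the 2 libraries, minus the gene's mean over types (red above, blue below; values beyond 4 are drawn at 4). ISC hold the top value for Lgr5, Olfm4, Gkn3, Pdgfa, Igfbp4 and Ifitm3, progenitors and secretory progenitors lie high for Top2a, Ube2c and Mki67, and enterocytes hold the top value for Sis, Fabp1 and Reg3a.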

How the data were processed

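Per the labels' protocols, small intestinal cells of wild-type mice were captured with 10x Genomics Chromium. The authors deposited UMI counts per gene and cell for 2 libraries, with cell types. The submitters' processing notes name the genome build mm9 with no role, and the counting software is not given in the sources used here. Of 1209 and 7711 barcodes in the matrices, 1144 and 1470 are annotated; others were not used except where stated. Doublet treatment is not given in the sources used here, and no doublet caller was run.

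UMI counts were summed per library and type (1206930 to 12134928 UMIs per sum) and tested with edgeR 4.0.16 (R 4.3.3; filterByExpr, TMM, glmQLFit, glmQLFTest, library as a block, Benjamini-Hochberg over 10052 genes, called at 0.05). Each gene has 1 residual degree of freedom, and edgeR shared 1 trend of the spread over all genes. Standard errors are the log2 fold change over the square root of F. The library pairs the types because both come from it, and deviations of the 2 types by library correlated at 0.61. An exact permutation test of 2 sums against 2 cannot go below p = 0.333, so sums that do not overlap between types are a description only. Normalised CPM uses TMM library sizes; CPM of total UMIs does not. For shares of cells, each cell was thinned to 5000 UMIs, which left out 5 ISC and 22 progenitors of set 2. Alternatives were DESeq2 1.42.0, other scalings and filters, other cells or types in the fit, and each library alone.

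Members and gene lists were chosen with earlier results of these data known. The genes named were, in each direction, up to 15 called genes by size of change with 1 direction in both libraries and at least 50 CPM in the higher type; up to 4 called members of each list with the largest change; and, for stem cell, Wnt, Notch and cell cycle lists, up to 4 abundant members that were not called. Further list members, such as Cd74, Ckap2l, Mcm2, Mcm6, Rnf43, Axin2, Sox9, Cdk4, Cdk6, Smoc2, Eps8 and Reg3g, were named after their values were seen.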

Additional observations from a re-analysis of the deposited data

Results flagged for a closer look

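Barcodes of set 2 that carry no annotated type numbered 6241 and were used in no comparison. UMIs for stem cell markers appear among them: 49 held an Lgr5 UMI, 32 an Ascl2 UMI and 119 an Olfm4 UMI. Of these barcodes 741 held at least 5000 UMIs, and 34 of those had an Lgr5 UMI, 25 an Ascl2 UMI and 67 an Olfm4 UMI. In set 1 there were 65 such barcodes, with 2, 3 and 2. They were brought up because they lie outside the cells compared, and there are no control samples to set them against.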

How the results depend on the processing

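Of the 1829 genes called (915 higher, 914 lower), the fit without the library block, which ignores the pairing of the types by library, called 13 (2 higher, 11 lower), with 942 at an unadjusted p under 0.05. DESeq2 called 455 (249, 206), a filter of at least 50 counts in each sum 786 (412, 374; 2525 genes tested), all cell types in the fit 804 (237, 567) and thinned cells 653 (353, 300). Library totals called 499 higher and 1308 lower, no filter 578 and 1032 (35.9% of calls higher) and cells low in G2 and M RNA 600 and 639. Every call kept its sign where tested, except in thinned cells (1557 of 1576), without cells rich in other markers (1819 of 1824) and in low G2 and M cells (1381 of 1445). Fits on the same sums could hardly change a sign, so there a kept sign is no further support.

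Leaving out 1 library leaves 1 sum per type and no test; the list medians then ranged from 1.40 to 1.57 for crypt stem cell genes, 0.036 to 0.072 for S phase, -2.17 to -2.16 for G2 and M, -0.64 to -0.41 for cholesterol synthesis and 0.72 to 0.73 for MHC class II. With each cell weighing alike, medians were -0.035 for S phase, -2.42 for G2 and M, 0.26 for ribosomal proteins and 0.63 for MHC class II. With library totals they were 1.25 for crypt stem cell genes, -0.058 for S phase, -2.39 for G2 and M, 0.25 for ribosomal proteins and 0.57 for MHC class II. In low G2 and M cells they were 2.40, 0.63, -0.42, -1.11 for cholesterol synthesis, 0.61 for MHC class II and -1.26 for absorptive genes; there keratins (-0.90) and Paneth markers (-0.10) reversed. The cause was not tested.

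Single genes that reversed in low G2 and M cells were Defa21 (-0.13), Ftl1 (-0.073), H2-K1 (-0.040), Suz12 (0.33), Tubb5 (1.43) and Usp1 (0.66). Leaving out 1 library in turn gave Agr2 from -1.41 to 0.23, Aldh1a1 from -2.07 to 0.20, Apoa1 from -1.03 to 0.20, Chgb from -3.45 to 1.06, Clca1 from -2.25 to 0.26 and Defa21 from -0.019 to 0.98. In thinned cells Agr2 (0.032) and Fos (0.32) reversed, and without cells rich in other markers Agr2 (0.20). With 158 ISC, genes under a few UMIs per sum cannot be resolved.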

Other observations

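Other gene groups were counted too, beside 9.10% of all genes tested higher in ISC and 9.09% lower. Of 15 ion channel and water transport genes, 7 were higher in ISC and 2 lower: Fxyd3, a regulator of the sodium pump, stood at 65.4 and 72.4 CPM against 28.1 and 32.6 in progenitors (log2 fold change 1.18, SE 0.15), and Aqp4, a water channel, at 58.0 and 31.4 against 21.8 and 18.8 (1.08, SE 0.19). Slc12a2, Aqp4, Clca3b and Aqp1, all among those higher, are also on the crypt stem cell list and were counted there already. Keratins parted: Krt18 was higher in ISC, at 534 and 742 against 206 and 382 (1.15, SE 0.10), while Krt20 was lower, and of 6 tested 3 were higher and 2 lower. Among 36 transcription factors of the intestine 6 were higher and 8 lower. Foxa3, linked to secretory cells, stood at 32.2 and 27.3 CPM in ISC against 6.70 and 9.28 (1.83, SE 0.24), Sox4 at 145 and 211 against 66.2 and 70.4 (1.39, SE 0.12), and Maf at 5.53 and 5.47 against 30.3 and 24.9 (-2.30, SE 0.32). DESeq2 called 4 of these factors higher and 2 lower.

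Other metabolic and miRNA lists were counted in the same way, beside the same shares. Over all 10052 genes DESeq2 called 249 higher and 206 lower. Of 17 glycolysis genes 2 were higher and 4 lower (none and 2 by DESeq2), with Pfkp, a phosphofructokinase, at 21.2 and 23.9 CPM in ISC against 53.9 and 75.3 (-1.54, SE 0.18). Of 21 genes of fatty acid oxidation and ketogenesis 1 was higher and 5 lower, and DESeq2 called none and thinned cells none. Of 28 xenobiotic and glutathione genes 1 was higher and 8 lower (none and 1 by DESeq2), among them Nqo1 at 15.7 and 12.3 against 34.2 and 35.4 (-1.34, SE 0.24; adjusted p = 0.052 by DESeq2). Of 16 genes of miRNA processing none passed in edgeR or DESeq2, and 2 (Ago2 and Ago4) had an unadjusted p under 0.05. Of 21 miRNA host genes 2 were higher, near the share over all genes, and 5 lower. Among those higher was Mir17hg, the host of the miR-17 cluster, at 9.21 and 10.9 against 5.69 and 4.87 (0.97, SE 0.37, adjusted p = 0.046, and 0.77 by DESeq2). A host transcript's level is not a mature miRNA's level.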
